A study of Drosophila melanogaster with 4 samples.

Results

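The nucleosome remodeler Mi-2 was depleted by RNA interference in ovarian somatic cells (OSCs), a Drosophila melanogaster line derived from the somatic cells of the ovary, and the level of every host gene was compared with that in a control transfection. Of 16776 gene symbols in the deposited table, 7952 had a mean of at least 1 FPKM (fragments per kilobase of transcript and mapped reads in units of 1e6) over the 4 libraries of the series, and these genes are described here. The control received siRNA against GFP (siGFP, named EGFP in the sample labels) and the knockdown received siRNA against Mi-2 (siMi-2), and both were collected 4 days after transfection at 26 °C. The remaining libraries, from cells given siRNA against piwi (sipiwi) or Rpd3 (siRpd3), are used only for side-by-side values. Each condition has 1 library of poly(A) RNA from a cultured line, so no difference has a replicate check and no p-value is given.

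Mi-2 is the ATPase of the nucleosome remodeling and deacetylase complex (dNuRD), in which it works with the histone deacetylase Rpd3, and of the smaller dMec complex, in which it partners the zinc-finger protein MEP-1. Both complexes are known as repressors of transcription, and dMec keeps genes of other cell types silent in fly tissues and cell lines. The study examined these factors as partners of Gtsf1, a cofactor of Piwi in the nuclear repression of transposable elements, that belong to known silencing complexes. The comparison of siMi-2 with siGFP addresses which host genes change when the remodeler is depleted.

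Between 32638866 and 38060116 mapped reads lay behind each library, as worked out from the spacing of its FPKM values. Genes were compared as the log2 ratio of FPKM + 0.1, a scale that shrinks the change of genes near 0. On that scale a gene counts as higher, or as having risen, when it is above 2-fold, and as lower, or as having fallen, when it is below 0.5-fold. Each ratio carries a 95% interval by the exact Clopper-Pearson method, from the fragments of both libraries. Such intervals set 1 library against another, not 1 condition against another, and hold counting error alone, because reads amplified by PCR are not separate molecules. Of the genes named here, many share exon sequence with another annotated gene, among them AspRS, Cht2, Cyp301a1, Cyp6d2, Ddc, Dif, Jhbp4, Jhbp5, Jheh3, Krn, Mccc1, Mdr49, Mi-2, Strica, Tsp42Ea, Tsp42Ej, aop, aub, cona, ecd, grk, vari, vret and yellow-b, and their reads cannot be told from those of the partner. In bulk RNA, fewer cells of a type and less RNA per cell cannot be told apart. The library labelled siRpd3 did not have lower Rpd3 RNA (listed as HDAC1, 71.3 FPKM in siGFP and 104 in that library), and it is called by its label throughout (the library labelled siRpd3, or values under the siRpd3 label). The paper reports RNAi efficiency in OSCs by western blot, with Rpd3 among the proteins blotted, and by RT-qPCR. The qPCR primers it lists include none for Rpd3. Whether the blotted cells were those sequenced is not stated. The siRpd3-labelled library also stands apart from the rest, with 40.9% of genes higher than in siGFP.

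Mi-2 RNA itself measured 5.67 FPKM in siMi-2, against 34.4 in siGFP, 69.3 in sipiwi and 83.6 under the siRpd3 label. It was lowest in the library that carries its name, with a log2 ratio of -2.58 to siGFP (interval -2.70 to -2.46), a 6.06-fold fall in FPKM. The OSC markers tj, piwi and fs(1)Yb were detected at 63.97, 73.5 and 53.3 FPKM in siGFP and at 110, 104 and 51.2 FPKM in siMi-2. The somatic label thus held in both libraries. Markers of other cell types were mixed. In siMi-2 the hemocyte genes Hml and eater, the fat body genes Lsp1alpha and Fbp1, the testis genes aly, can, dj and fzo, the muscle gene up and the germline gene osk were at 0. Others were not: aub measured 8.06 FPKM, Mhc 4.95, bam 3.27, vas 2.66, topi 2.32, srp 1.91, elav 1.71 and Mef2 1.52 in siMi-2, of which topi was lower than its 3.55 in siGFP. Summed over each list, germline markers went from 3.32 FPKM in siGFP to 15.1 in siMi-2, muscle from 1.72 to 6.61, hemocyte from 0.113 to 2.31, neuron from 1.03 to 1.98 and testis from 3.55 to 2.32. The part of such cells in the results was not tested.

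No partner subunit of the remodeler complexes passed either threshold. MEP-1 went from 13.9 to 27.0 FPKM, a log2 ratio of 0.95 (interval 0.85 to 1.05). Its level was 29.2 FPKM in sipiwi and 79.5 in the library labelled siRpd3. Over the 7 subunits other than Mi-2 the median log2 ratio was 0.47, against 0.13 over all genes. Rpd3 RNA was the lowest of them relative to siGFP, at 71.3 FPKM in siGFP and 54.7 in siMi-2.

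In siMi-2, 1245 of 7952 genes (15.7%) were higher and 273 (3.43%) were lower than in siGFP. The median log2 ratio was 0.13 (exact binomial interval over genes 0.11 to 0.14). The counting interval lay above a ratio of 1 for 1220 of the higher genes and below it for 262 of the lower genes. More than 4-fold higher were 466 genes, and below 0.25-fold were 55. Of the genes past either threshold 82.0% were higher. Scaling each library to its median gene shifted the median log2 ratio by -0.16 and gave 1012 higher and 404 lower genes, of which 71.5% were higher. Unless scaling is named, the ratios and counts given here are unscaled, so medians are uncertain by a shift of that size.

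The higher genes were mostly of low level in the control, and those under 1 FPKM in siGFP passed the minimum only through another library. The higher genes had a median of 1.81 FPKM in siGFP and 7.61 in siMi-2, while the lower genes went from a median of 12.6 to 3.97 FPKM. All genes had a median of 13.2 in siGFP. Reads on the higher genes made up 1.86% of the siGFP library and 6.02% of the siMi-2 library. By level in siGFP, 31.0% of the 709 genes between 1 and 2 FPKM were higher, as were 12.5% of the 950 genes between 5 and 10 FPKM and 1.93% of the 1037 genes at or above 100 FPKM. The share that was lower moved little, between 2.54% and 5.34% in the classes from 1 FPKM upward. At or above 100 FPKM, lower genes outnumbered higher ones, 39 to 20. These classes are cut on siGFP, the denominator of the ratio, which favors lower genes at high levels and higher genes at low levels. Cut on siMi-2 instead, 87 genes were higher and 19 lower at or above 100 FPKM. The share higher was then 19.1% at 1 to 2 FPKM, 25.4% at 2 to 5 and 8.15% at or above 100. The share lower was 6.18%, 3.78% and 1.78% in the same classes. Below 1 FPKM in siGFP the shares are not read here, because a gene could reach the minimum mean only through a high value in another library. Among the 7277 genes at 1 FPKM or more in siGFP, 807 (11.1%) were higher and 266 (3.66%) were lower.

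**Figure D1:**
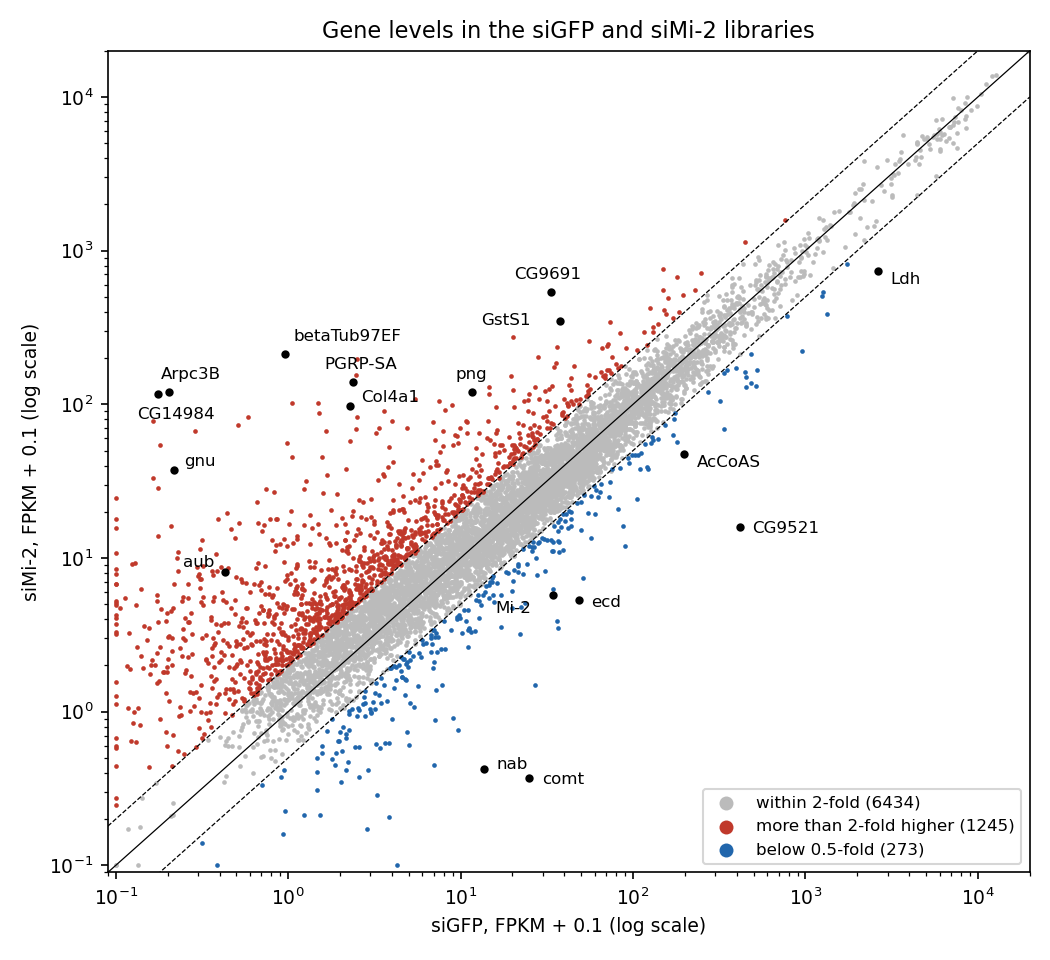
Each point is 1 of 7952 genes, with FPKM + 0.1 in the siGFP library on the x axis and in the siMi-2 library on the y axis, both on log scales. The solid line marks equal levels and the dashed lines 2-fold and 0.5-fold. The 1245 higher genes (red) spread far above the line at low siGFP levels, and the 273 lower genes (blue) lie closer to it.

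**Figure D2:**
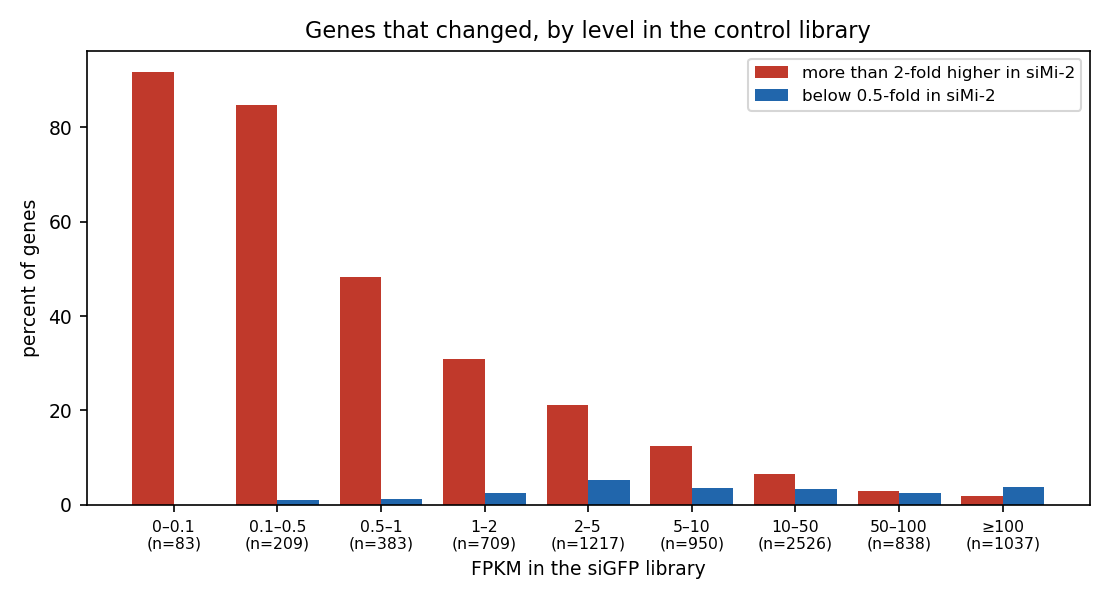
Bars give the percent of genes more than 2-fold higher (red) and below 0.5-fold (blue) in siMi-2, for classes of FPKM in siGFP with the number of genes under each. The share higher drops from 31.0% at 1 to 2 FPKM to 1.93% at 100 FPKM or more, and genes under 1 FPKM were included only if another library was high. Cutting the classes on siGFP, the denominator of the ratio, favors such a drop.

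The genes with the highest ratios were nearly silent in the control. CG14984 measured 117 FPKM in siMi-2 (2696 reads), against 0.0769 in siGFP (2 reads), 0.495 in sipiwi and 4.47 under the siRpd3 label. Arpc3B, a second copy of the subunit ArpC3 of the Arp2/3 complex that branches actin filaments, measured 121 FPKM in siMi-2 (3093 reads), against 0.104 in siGFP (3 reads), 1.05 in sipiwi and 2.87 under the siRpd3 label. With so few control reads, the interval of the ratio alone is informative, and it began at 245-fold for CG14984 and 244-fold for Arpc3B. The ordinary copy Arpc3A was at 50.3 FPKM in siGFP and 57.3 in siMi-2, so that in siMi-2 the level of Arpc3B exceeded it. None of the other 7 Arp2/3 subunits passed a threshold.

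A similar picture was seen for the tubulin betaTub97EF, an isotype known from the gut, which measured 214 FPKM in siMi-2, against 0.865 in siGFP, 1.85 in sipiwi and 47.3 under the siRpd3 label. Its FPKM ratio in siMi-2 was 247 (log2 7.79, interval 7.30 to 8.32). The main beta-tubulin of these cells, betaTub56D, was at 3553 FPKM in siGFP and 3934 in siMi-2. The developmental isotype betaTub60D rose from 20.4 to 95.8 FPKM, a log2 ratio of 2.23 (interval 2.13 to 2.33), and was higher still in the library labelled siRpd3 (450 FPKM). Obp99a, an odorant-binding protein, was at 0.186 FPKM in siGFP and 67.4 in siMi-2. Other genes among the 15 highest ratios had no reads in siGFP: CG30154 was at least 75.7-fold higher and GILT2, a thiol reductase of the GILT family, at least 68.2-fold higher than the floor of 3 fragments in siGFP.

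Among genes that the control already expressed at 10 FPKM or more, CG9691 had the highest ratio, with 542 FPKM in siMi-2, against 33.5 in siGFP, 31.2 in sipiwi and 77.4 under the siRpd3 label. Its log2 ratio was 4.01 (interval 3.86 to 4.17). The next was GstO3, a glutathione S-transferase of the omega class, at 273 FPKM in siMi-2, against 20.01 in siGFP, 19.9 in sipiwi and 36.7 under the siRpd3 label. For both genes siMi-2 stood above the remaining libraries. In all, 339 genes (4.26% of those tested) stood more than 2-fold above each of the other 3 libraries in siMi-2, and 114 (1.43%) were below 0.5-fold of each. All comparisons with siGFP share that 1 library. Of the 1245 genes higher in siMi-2, 363 (29.2%) were also higher than siGFP in sipiwi and 872 (70.04%) under the siRpd3 label, where 11.4% and 40.9% of all genes were higher. Of the 273 lower genes, 41 (15.02%) were also lower in sipiwi and 93 (34.1%) under the siRpd3 label, where 2.54% and 7.44% of all genes were lower.

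**Figure D3:**
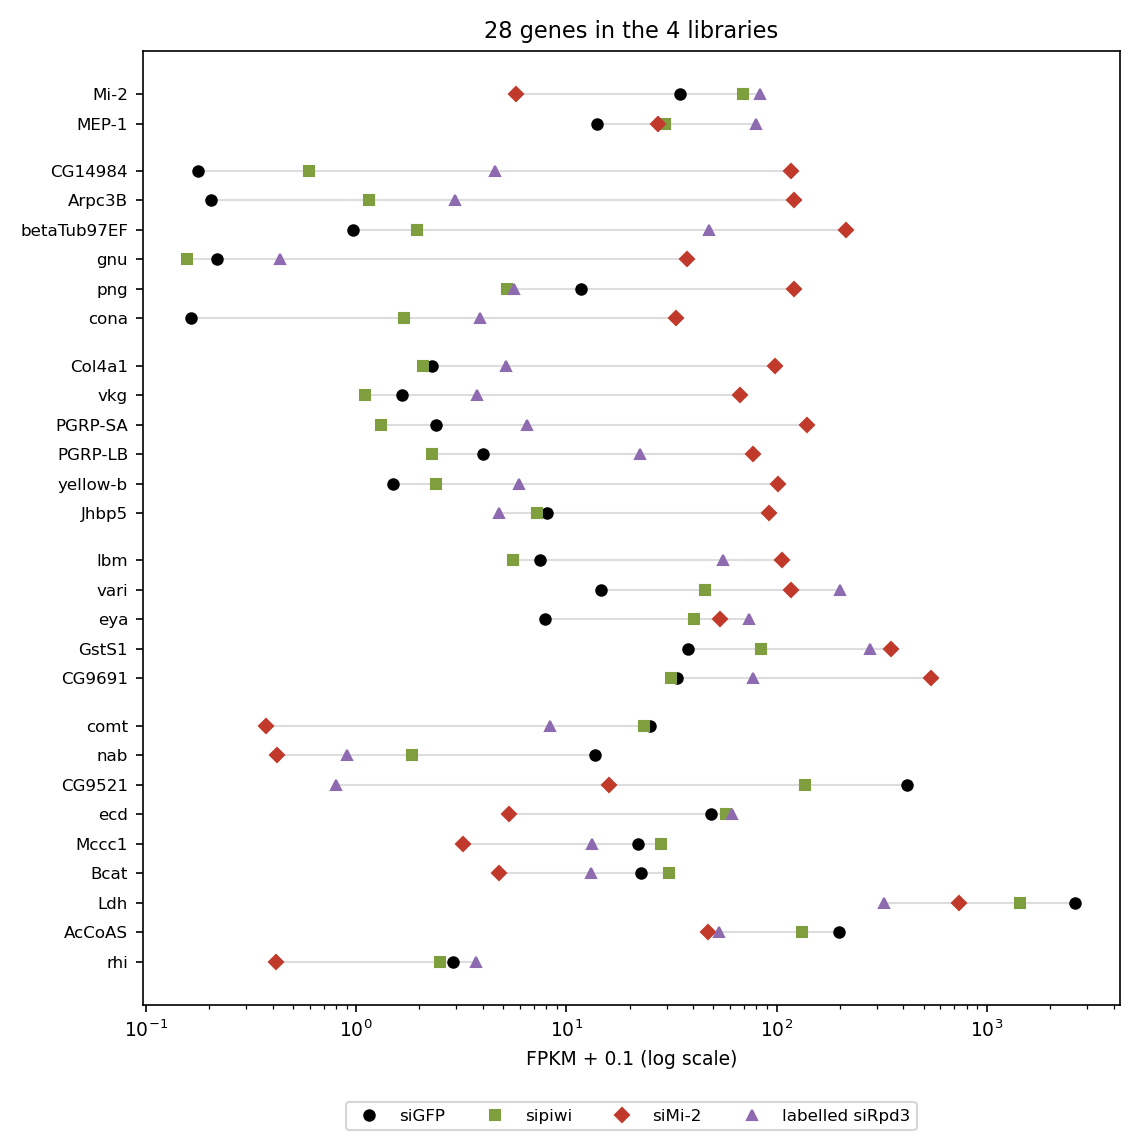
FPKM + 0.1 on a log axis for 28 genes in siGFP (black), sipiwi (green), siMi-2 (red) and the library labelled siRpd3 (purple), 1 library each. gnu, png, cona, Col4a1 and PGRP-SA are highest in siMi-2, vari and eya are higher under the siRpd3 label, and in the lowest block comt, nab, ecd and rhi are lowest in siMi-2 while CG9521 and Ldh are lowest under the siRpd3 label.

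Gene groups are described by the number of measured members past the threshold and by their median log2 ratio, beside 15.7% higher, 3.43% lower and a median of 0.13 over all genes. Because members that are low in the control could pass the minimum through siMi-2 itself, the count among members at 1 FPKM or more in siGFP is also given for the groups discussed first. There the background was 11.1% higher.

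Type IV collagen, the network of basement membranes, is made from Col4a1 and viking (vkg), which lie next to each other on chromosome arm 2L (5029609 to 5037279 and 5012144 to 5028191, dm6). Col4a1 measured 97.8 FPKM in siMi-2, against 2.199 in siGFP, 1.98 in sipiwi and 5.06 under the siRpd3 label, with a log2 ratio of 5.41 (interval 5.24 to 5.59). Its partner vkg measured 66.8 FPKM in siMi-2, against 1.55, 1.004 and 3.67 in siGFP, sipiwi and under the siRpd3 label, with a log2 ratio of 5.34 (interval 5.14 to 5.54). Both collagen genes were highest in siMi-2 and also more than 2-fold above siGFP under the siRpd3 label, and neither passed a threshold in sipiwi. SPARC, a collagen-binding matrix glycoprotein, rose from 228 to 559 FPKM and was lower in the library labelled siRpd3 (108 FPKM). The integrin alpha subunit scb and the perlecan gene trol also rose, and the other 12 of 17 integrin, laminin and basement membrane genes did not pass the threshold (median 0.44). Of the 16 genes of this group at 1 FPKM or more in siGFP, 5 were higher.

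Few cuticle and chitin genes were measurable. Of 5 genes of chitin and the apical extracellular matrix that reached the minimum, out of 24 in the table, 4 were higher, but only 2 were at 1 FPKM or more in siGFP, of which 1 was higher. The chitin-binding protein obst-E had no reads in siGFP, 0.0527 FPKM in sipiwi and 17.8 in siMi-2, at least 108-fold above the floor, and again none in the library labelled siRpd3. The chitinase Cht7 went from 2 reads in siGFP to 773 in siMi-2, and the chitinase Cht2 from 28.1 to 203 FPKM. Among 7 cuticle proteins tested of 112 in the table, 5 were higher and Cpr67Fa2 was lower, the latter with only 6 reads in siGFP. The imaginal disc growth factors, chitinase-like proteins without enzymatic activity, were uneven: Idgf4 rose from 3.69 to 38.9 FPKM, while Idgf2 was at 11.5 FPKM in siGFP and 6.43 in siMi-2.

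The Yellow proteins and the enzymes of melanin and biogenic amine synthesis, some of which color or harden cuticle, were looked at after their values had been seen. Of 7 yellow family genes that reached the minimum, 6 were higher and none was lower (median 3.09). Among the 4 at 1 FPKM or more in siGFP, 3 were higher. The first of them, yellow-b, measured 102 FPKM in siMi-2, against 1.39 in siGFP, 2.31 in sipiwi and 5.86 under the siRpd3 label. Dopa decarboxylase (Ddc), which makes dopamine, measured 34.5 FPKM in siMi-2, against 1.57 in siGFP, 0.874 in sipiwi and 7.49 under the siRpd3 label, a log2 ratio of 4.37 (interval 4.03 to 4.73). Its neighbor amd, a related decarboxylase needed for cuticle, rose from 19.999 to 125 FPKM. Tyrosine hydroxylase (ple), the step before Ddc, was at 0.334 FPKM in siGFP and 0.547 in siMi-2 and so stayed near silent. Of the 8 genes of melanin and amine synthesis tested, 5 were higher and none was lower, and of the 4 at 1 FPKM or more in siGFP, 3 were higher.

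Innate immune recognition showed a steep rise in few genes. PGRP-SA, the receptor that senses Gram-positive bacteria ahead of the Toll pathway, measured 140 FPKM in siMi-2, against 2.29 in siGFP, 1.22 in sipiwi and 6.41 under the siRpd3 label. Its log2 ratio was 5.87 (interval 5.41 to 6.38). PGRP-LB and PGRP-SC2, amidases that degrade peptidoglycan and dampen the Imd pathway, rose from 3.89 to 77.4 FPKM and from 0.292 to 17.8 FPKM. The receptors PGRP-LE and PGRP-LD did not pass the threshold (9.75 to 13.8 and 4.57 to 3.13 FPKM). Across antimicrobial peptides and the Toll and Imd pathways, 6 of 14 measured genes were higher, none was lower and the median was 0.57. Of the 12 at 1 FPKM or more in siGFP, 4 were higher. The group also includes the NF-kappaB factor Dif (0.574 to 4.27 FPKM) and the adaptor Myd88 (1.36 to 3.83 FPKM). Serpins, inhibitors of the serine proteases that drive Toll activation and melanization, were examined after their values had been seen, and 9 of 15 were higher and none lower, with 8 of 12 higher at 1 FPKM or more in siGFP. Spn27A, which restrains the melanization cascade, was at 24.97 FPKM in siGFP and 116 in siMi-2.

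Tetraspanins, small proteins that organize membrane domains, had 10 of 16 measured genes higher, none lower and a median of 1.14. Of the 13 at 1 FPKM or more in siGFP, 8 were higher. late bloomer (lbm), the tetraspanin known from motor neuron synapse formation, measured 105 FPKM in siMi-2, against 7.36 in siGFP, 5.50 in sipiwi and 55.1 under the siRpd3 label. Its neighbors Tsp42Ej and Tsp42El were also higher (2.73 to 17.8 and 13.1 to 37.1 FPKM), as was Tsp42Ea of the same cluster (45.4 to 178 FPKM). None of the 10 higher tetraspanins was more than 2-fold above each of the other 3 libraries.

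Septate and adherens junction genes, which seal and attach epithelial cells, had 12 of 29 higher, none lower and a median of 0.79. Of the 28 at 1 FPKM or more in siGFP, 11 were higher. varicose (vari), a scaffold of the septate junction, measured 116 FPKM in siMi-2, against 14.6 in siGFP, 45.7 in sipiwi and 200 under the siRpd3 label. The cell adhesion molecules Fas2 and Fas3 rose from 1.17 to 4.99 FPKM and from 1.57 to 4.51 FPKM. Both had far higher levels in the library labelled siRpd3 (32.6 and 49.4 FPKM). As with the tetraspanins, no junction gene was more than 2-fold above each of the other 3 libraries.

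Signaling pathways varied in how many members passed the threshold. In the receptor tyrosine kinase pathways, which carry EGF, FGF and PVF signals, 13 of 28 genes were higher, none was lower and the median was 0.88, and among the 22 at 1 FPKM or more in siGFP, 7 were higher. Higher members included ligands (Pvf1, Pvf3, pyr, vn, Krn, grk), the receptor Pvr, the kinase rl, the transcription factors pnt and aop and the feedback inhibitor sty. Some of these were near silent in the control: Pvf1 was at 0.0392 FPKM in siGFP (4 reads), 0.715 in siMi-2 and 9.79 under the siRpd3 label. Pvf3 was at 0.299, 2.02 and 4.53 FPKM in the same libraries. The ligand pyr was at 0.806 FPKM in siGFP and 3.20 in siMi-2, and sty at 3.16 and 10.6. In the Notch pathway 6 of 22 genes were higher, and 3 of the 18 at 1 FPKM or more in siGFP. Among them were the regulator numb (0.348 to 3.68 FPKM) and 3 genes of the E(spl) complex, the targets of Notch. The ligand hedgehog (hh) measured 55.4 FPKM in siMi-2, against 15.5 in siGFP, 16.7 in sipiwi and 48.5 under the siRpd3 label, and the other 10 of 11 Hedgehog pathway genes did not pass. In the Hippo, Wnt, JAK/STAT, and BMP and activin pathways, 4 of 21, 3 of 19, 2 of 11 and 3 of 15 genes were higher and none was lower, shares near the background.

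A few cell death genes were higher. The killers rpr and hid, which release caspases from inhibition, went from 0.423 to 2.06 FPKM and from 0.185 to 0.989 FPKM. The Bcl-2 family genes Buffy and Debcl were at 3.94 and 16.9 FPKM in siGFP and at 20.5 and 54.6 FPKM in siMi-2. Buffy measured 0.506 FPKM in sipiwi and 0.531 under the siRpd3 label. With the caspase Strica (0.306 to 3.55 FPKM), 5 of 16 apoptosis genes were higher and none was lower, and the median was 0.62. Because rpr, hid and Strica were under 1 FPKM in siGFP, they could reach the minimum only through other libraries, and of the 13 genes at 1 FPKM or more in siGFP, 2 were higher.

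Detoxification genes moved in both directions. Of 36 cytochrome P450 genes tested, 12 were higher and 6 lower, with a median of 0.69, and of the 28 at 1 FPKM or more in siGFP, 7 were higher. Cyp301a1, which is needed for adult cuticle, measured 15.4 FPKM in siMi-2, against 0.365 in siGFP, 0.190 in sipiwi and 0.537 under the siRpd3 label. At the other end Cyp6d2 fell from 3.16 to 0.189 FPKM. Cyp18a1, the hydroxylase that inactivates ecdysone, fell from 20.2 to 7.04 FPKM and was at 79.9 FPKM in the library labelled siRpd3. Of 26 glutathione S-transferases, all at 1 FPKM or more in siGFP, 9 were higher and GstE3 was lower, although their median was only 0.05. GstS1, the sigma-class enzyme, measured 348 FPKM in siMi-2, against 37.7 in siGFP, 84.4 in sipiwi and 277 under the siRpd3 label. GstD9 rose from 444 to 1139 FPKM, among the largest absolute rises of an enzyme in this group. Of 10 UDP-glycosyltransferases, which conjugate sugars to small molecules, 5 were higher and Ugt35C1 was lower, and of the 7 at 1 FPKM or more in siGFP, 2 were higher.

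Juvenile hormone binding proteins and epoxide hydrolases were grouped after their values had been seen. Jhbp5 measured 91.4 FPKM in siMi-2, against 8.01 in siGFP, 7.16 in sipiwi and 4.69 under the siRpd3 label. The adjacent Jhbp4, whose exons overlap those of Jhbp5, had 0 reads in siGFP and 8.35 FPKM in siMi-2. The hydrolase Jheh3 rose from 1.38 to 16.7 FPKM, whereas the abundant Jheh1 and Jheh2 did not pass (345 to 526 and 436 to 411 FPKM). Of the 5 genes at 1 FPKM or more in siGFP, 3 were higher. All 4 higher genes of the 6 tested were more than 2-fold above each of the other 3 libraries.

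**Figure D4:**
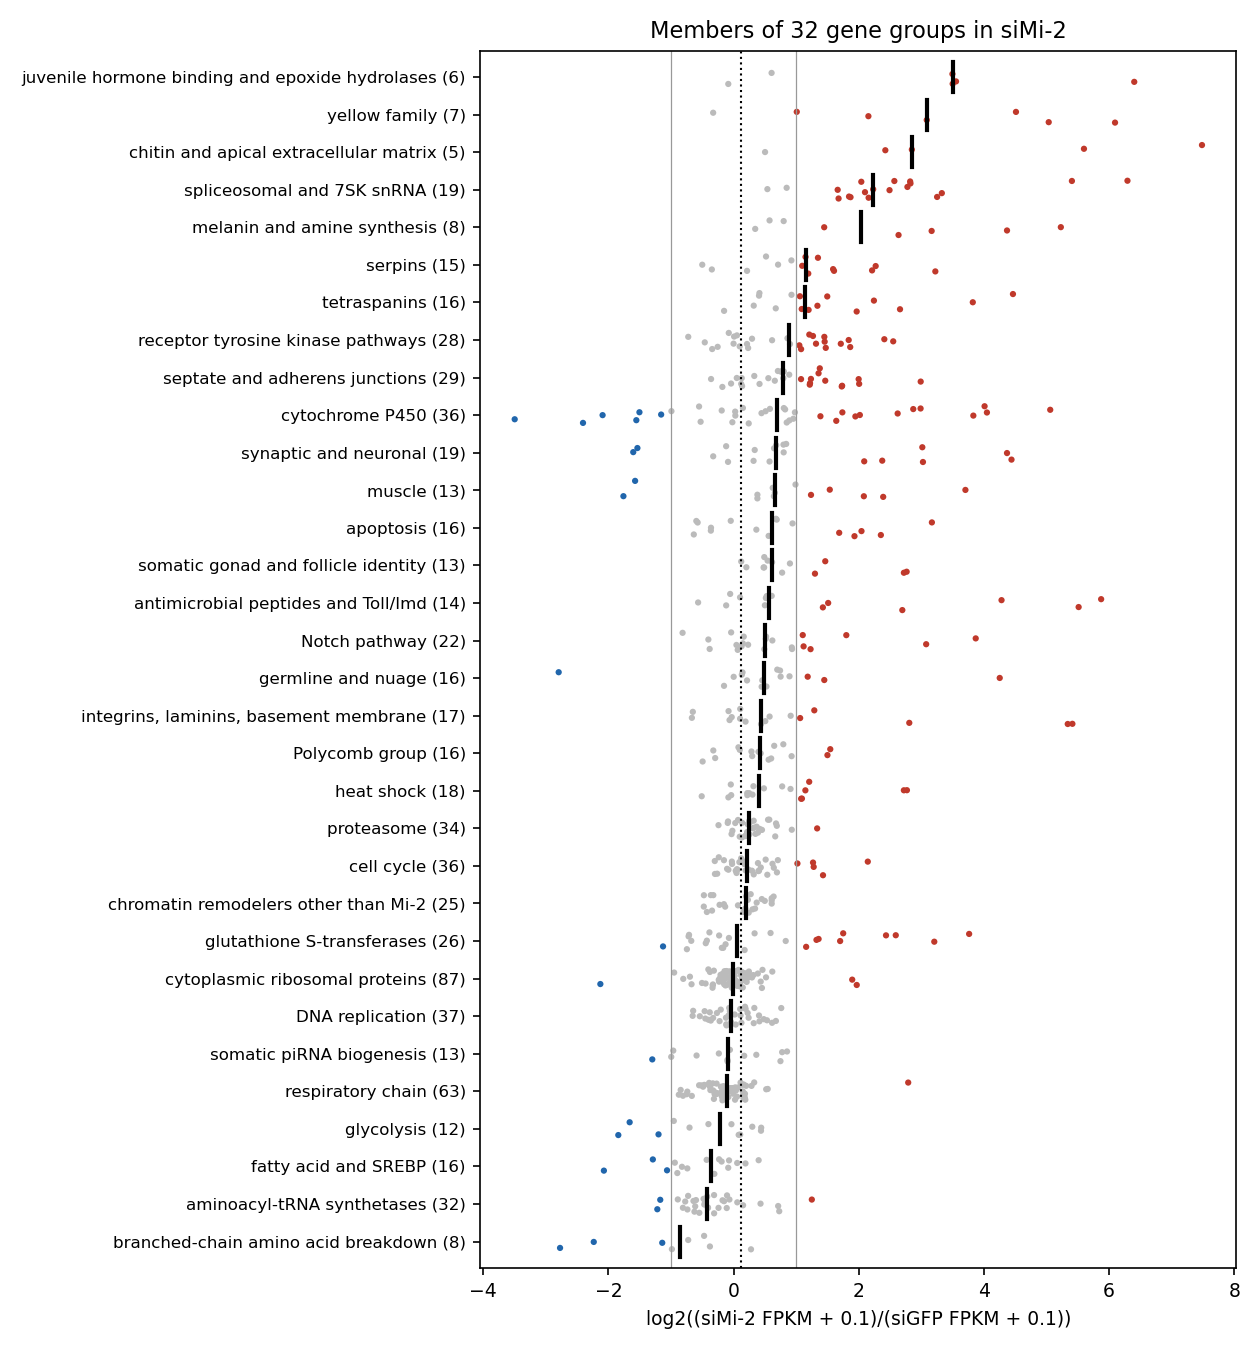
Each point is a measured member of 1 of 32 gene groups, placed by its log2 ratio of FPKM + 0.1 in siMi-2 over siGFP (red above 2-fold, blue below 0.5-fold, gray between), with the number tested in parentheses. Black bars are group medians and the dotted line is the median of all genes, 0.13. Medians run from 3.50 for juvenile hormone binding and epoxide hydrolases at the top to -0.86 for branched-chain amino acid breakdown. Both of these groups were drawn up after their values had been seen. So were the snRNA, yellow, melanin and serpin groups.

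Genes of the female germline and of the oocyte appeared among the highest ratios. The PNG kinase drives translation at egg activation, and its catalytic subunit png measured 121 FPKM in siMi-2, against 11.6 in siGFP, 5.14 in sipiwi and 5.50 under the siRpd3 label. Its activator gnu measured 37.5 FPKM in siMi-2 (1250 reads), against 0.118 in siGFP (4 reads), 0.0569 in sipiwi and 0.332 under the siRpd3 label. The synaptonemal complex protein cona measured 33.1 FPKM in siMi-2 (1024 reads), against 0.0636 in siGFP (2 reads), 1.59 in sipiwi and 3.79 under the siRpd3 label. These 3 genes were each far above every other library in siMi-2. The rest of their groups were not: the other 9 genes of oocyte maturation and egg activation did not pass the threshold, and of 16 meiotic recombination genes 4 were higher and corolla, another synaptonemal complex protein, was lower (2.34 to 0.489 FPKM). At 1 FPKM or more in siGFP, 1 of 9 egg activation genes and 1 of 12 meiotic genes were higher. Both of these groups were drawn up after their values had been seen.

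Germline piRNA factors did not change together. aub, a germline PIWI protein, measured 8.06 FPKM in siMi-2, against 0.328 in siGFP, 0.448 in sipiwi and 1.98 under the siRpd3 label, a log2 ratio of 4.25 (interval 3.68 to 4.83). rhi, the HP1 homolog that licenses germline piRNA clusters, measured 0.317 FPKM in siMi-2, against 2.79, 2.41 and 3.63 in siGFP, sipiwi and under the siRpd3 label, a log2 ratio of -2.79 (interval -3.62 to -1.97). Of 16 germline and nuage genes tested, 3 were higher and 1 was lower, with a median of 0.49, and none of the 13 at 1 FPKM or more in siGFP was higher. Of the germline markers, vas went from 0.0243 to 2.66 FPKM, while nanos was at 0.117 and 0.0833 FPKM and osk at 0. Their summed level was 15.1 FPKM in siMi-2, against 3.32 in siGFP, 6.398 in sipiwi and 5.78 under the siRpd3 label.

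Genes of neurons and muscle were higher in part. Of 19 synaptic and neuronal genes that reached the minimum of 70 in the table, 6 were higher and 2 lower, and of the 11 at 1 FPKM or more in siGFP, 3 were higher. complexin (cpx), which clamps synaptic vesicle fusion, measured 4.44 FPKM in siMi-2, against 0.109 in siGFP, 0.0974 in sipiwi and 0.313 under the siRpd3 label. The neuropeptide cell regulator dimm fell from 4.76 to 1.499 FPKM. Of 13 muscle genes 5 were higher, among them myosin heavy chain (Mhc, 1.09 to 4.95 FPKM), and 2 were lower, Zasp66 (37.1 to 10.9 FPKM) and Prm (2.16 to 0.659 FPKM). Of the 10 muscle genes at 1 FPKM or more in siGFP, 3 were higher. In the list of homeotic and segmentation transcription factors only eya, a regulator of follicle cell fate, passed the threshold of the 10 genes tested. It measured 53.9 FPKM in siMi-2, against 7.84 in siGFP, 40.1 in sipiwi and 73.8 under the siRpd3 label.

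Housekeeping groups remained within 2-fold for most members. Of 87 cytoplasmic ribosomal protein genes, 2 were higher and 1 was lower, with a median of -0.01. These were paralogs of other ribosomal protein genes: RpS5b rose from 180 to 671 FPKM, RpS10a from 2.53 to 10.2 FPKM, and RpS19b fell from 106 to 24.1 FPKM. None of 37 DNA replication genes passed in either direction (median -0.04), nor did any of 25 other chromatin remodelers (median 0.20). In each case 1 gene was higher among 75 mitochondrial ribosomal protein genes, 63 respiratory chain genes and 34 proteasome genes, with no gene lower. The median of the aminoacyl-tRNA synthetases, which charge tRNAs, was -0.42, with AspRS and TrpRS lower (131 to 58.2 and 139 to 59.6 FPKM) and AsnRS-m higher among 32 genes.

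The lower genes were fewer and included genes of high control level. The lowest ratio belonged to comt, which encodes the vesicle fusion ATPase NSF1. It measured 0.272 FPKM in siMi-2, against 24.9 in siGFP, 23.4 in sipiwi and 8.24 under the siRpd3 label. The log2 ratio was -6.07 (interval -6.64 to -5.51), a 91.6-fold fall in FPKM. nab, a transcriptional cofactor, measured 0.321 FPKM in siMi-2, against 13.6, 1.74 and 0.802 in siGFP, sipiwi and under the siRpd3 label, so that it was lower than siGFP in all 3 of these libraries. CG9521, a member of the GMC oxidoreductase family, measured 15.8 FPKM in siMi-2, against 418 in siGFP, 136 in sipiwi and 0.703 under the siRpd3 label, again lower than siGFP in each. By contrast ecd, which is needed for ecdysone production and for splicing, was low in siMi-2 only: it measured 5.21 FPKM in siMi-2, against 48.6 in siGFP, 57.5 in sipiwi and 61.1 under the siRpd3 label. CG14321 went from 108 reads in siGFP to none in siMi-2, at least 17.7-fold lower than in siGFP against the floor. Nthl1, a DNA glycosylase of base excision repair, fell from 8.95 to 0.816 FPKM.

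Several abundant lower genes encode metabolic enzymes. Lactate dehydrogenase (Ldh) measured 734 FPKM in siMi-2, against 2632 in siGFP, 1436 in sipiwi and 324 under the siRpd3 label, with a log2 ratio of -1.84 (interval -1.86 to -1.82). Phosphoglucose isomerase (Pgi) and aldolase (Ald1) fell from 179 to 56.5 FPKM and from 485 to 211 FPKM. With them 3 of 12 glycolytic genes were lower and none was higher, and the median was -0.22. Acetyl-CoA synthetase (AcCoAS) measured 47.1 FPKM in siMi-2, against 198 in siGFP, 132 in sipiwi and 53.2 under the siRpd3 label. The fatty acid synthase FASN1 and the lipid droplet protein Lsd-2 were also lower, so that 3 of 16 genes of fatty acid synthesis and its regulation were lower and none was higher (median -0.37). A further pair of enzymes was singled out after their values had been seen. Arginine kinase (Argk1) fell from 1334 to 387 FPKM and inositol-3-phosphate synthase (Inos) from 954 to 222 FPKM, and both were also lower in sipiwi (458 and 354 FPKM).

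The breakdown of branched-chain amino acids, grouped after its values had been seen, had the lowest median of the groups shown. Bcat, the first transaminase, measured 4.70 FPKM in siMi-2, against 22.5 in siGFP, 30.6 in sipiwi and 12.99 under the siRpd3 label. Mccc1, a subunit of methylcrotonyl-CoA carboxylase, measured 3.12 FPKM in siMi-2, against 21.9, 28.2 and 13.2 in siGFP, sipiwi and under the siRpd3 label. Its partner subunit Mccc2 was at 20.4 FPKM in siGFP and 10.2 in siMi-2, just short of the threshold. In this group 3 of 8 genes were lower, none was higher and the median was -0.86.

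Genes of the pathway that makes piRNAs in these cells mostly stayed within the thresholds. Of 13 somatic piRNA biogenesis genes, only vret, a Tudor protein of the Yb body, passed the threshold, with 17.8 FPKM in siMi-2, against 43.9 in siGFP, 42.5 in sipiwi and 25.2 under the siRpd3 label. The median of the group was -0.10. Of 11 nuclear Piwi silencing genes, ctp, which encodes a dynein light chain, was higher (41.8 to 99.5 FPKM) and none was lower (median 0.11).

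The small chromosome 4 is largely heterochromatic. Of its 60 genes tested, 20 (33.3%) were higher and 1 was lower, with a median log2 ratio of 0.83. On the X chromosome and the arms 2L, 2R, 3L and 3R, between 12.8% and 17.2% of genes were higher and the medians lay between 0.07 and 0.17. In sipiwi the median of the chromosome 4 genes was -0.20, below the 0.26 to 0.33 of the other arms, and under the siRpd3 label it was 0.52, within their range of 0.50 to 0.80. Among genes at 10 FPKM or more in siGFP, the median was 0.64 for 20 genes of chromosome 4 and -0.07 for 4381 genes elsewhere. No test was made of this difference, since genes of a chromosome are not replicates.

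CG31997 had the highest ratio on chromosome 4, with 0.0818 FPKM in siGFP (2 reads) and 54.3 in siMi-2 (1368 reads). yellow-h measured 17.9 FPKM in siMi-2, against 0.688 in siGFP, 0.524 in sipiwi and 0.489 under the siRpd3 label. It is followed along the chromosome by CG1674, dpr7 and Rad23, which were all higher (0.672 to 6.35, 0.636 to 5.70 and 24.8 to 56.9 FPKM). The TGF-beta ligands mav and myo were higher as well (0.725 to 3.95 and 3.92 to 9.21 FPKM). Some abundant housekeeping genes of this chromosome went the other way without passing the threshold. RpS3A was at 2514 FPKM in siGFP and 1440 in siMi-2, ATPsynbeta at 836 and 477, and ND-49 at 245 and 137.

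**Figure D5:**
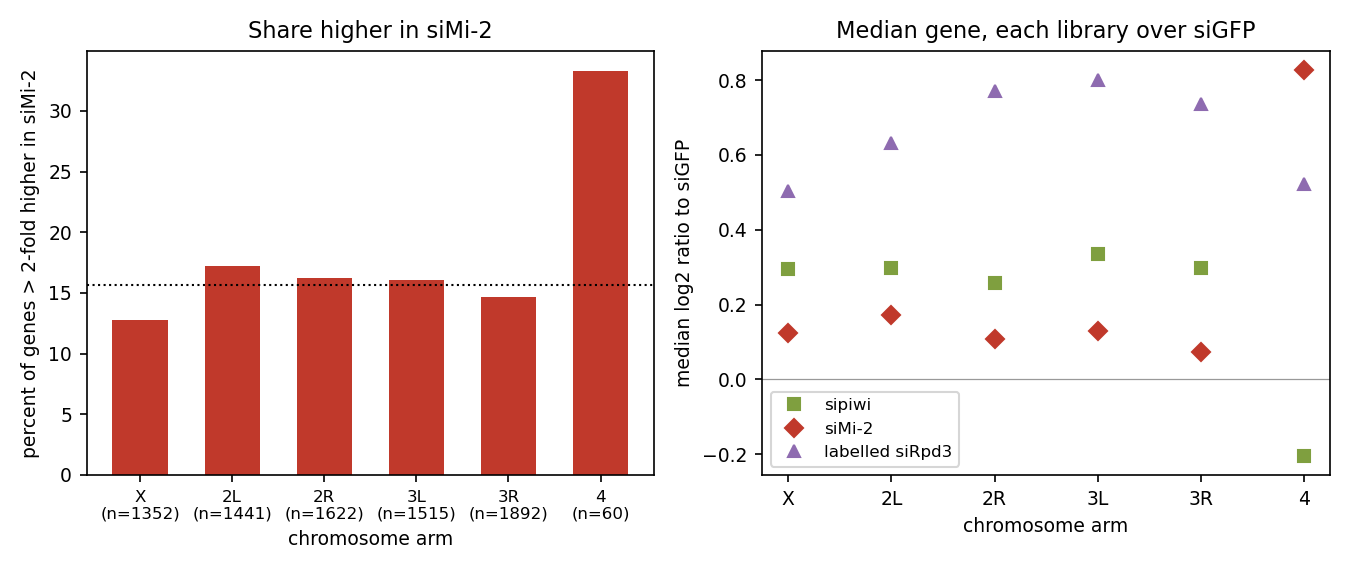
Left, percent of genes more than 2-fold higher in siMi-2 on each chromosome arm, with the number of genes tested and the share over all genes (dotted, 15.7%). Right, the median log2 ratio to siGFP per arm for sipiwi (green), siMi-2 (red) and the library labelled siRpd3 (purple). Chromosome 4 has the highest siMi-2 value, 0.83, and the lowest sipiwi value, -0.20.

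Neighboring genes were also compared. Among 6408 pairs of adjacent tested genes without shared exons, 23.6% of the neighbors of a higher gene were higher too, where 16.8% of genes in these pairs were higher. For lower genes the figures were 4.43% and 3.52%. Genes under 1 FPKM in siGFP were kept in these counts. There were 40 runs of 3 or more higher genes adjacent among the tested genes, some of them holding U1, U2 or U6 snRNA copies between which reads could be split. How many such runs would arise without clustering, with 16.8% of genes higher, was not worked out, so the number of runs is not read as a result. Runs could be long, up to 440 kb. The runs included E(spl)mbeta-HLH, E(spl)malpha-BFM and E(spl)m2-BFM with 2 long noncoding RNAs on 3R, and lbm with Tsp42El and Tsp42Ej on 2R. Another run joined hid and rpr, with CG32196 and a noncoding RNA, on 3L. The Polycomb genes Psc and Su(z)2, which lie side by side on 2R, formed a run with Mdr49 and rose from 0.587 to 1.84 FPKM and from 0.380 to 1.30 FPKM. Of 16 Polycomb group genes tested, these 2 (12.5%) were higher, a share below the 15.7% over all genes. None of the 11 at 1 FPKM or more in siGFP was higher.

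Among noncoding RNAs, of 19 spliceosomal and 7SK snRNA genes tested, 17 were higher and none was lower (median 2.23). Of the 15 at 1 FPKM or more in siGFP, 13 were higher. Of the 17 higher genes 13 were more than 2-fold above each of the other 3 libraries. This group was drawn up after its values had been seen. snRNA:U12 measured 35.8 FPKM in siMi-2 (308 reads), against 5.95 in siGFP (52 reads), 30.6 in sipiwi and 16.1 under the siRpd3 label. snRNA:7SKa, which controls the elongation factor P-TEFb, measured 14.6 FPKM in siMi-2, against 3.19, 7.81 and 3.59 in siGFP, sipiwi and under the siRpd3 label. Neither snRNA:U12 nor snRNA:7SKa was more than 2-fold above its level in sipiwi, so neither is among those 13. Copies of U1, of U2 and of U6 are nearly identical, so that reads could be split between them and single copies are uncertain. The counts of snRNA genes given here take each copy as a separate member, and are not counts of different RNAs. These short RNAs carry no poly(A) tail and were covered by few reads in a poly(A) library. The part of the RNA selection in their values was not tested. Of 49 snoRNAs tested, likewise short, 7 were higher and 10 lower, with a median of -0.27. Of 133 long noncoding RNAs, 49 were higher and 14 lower, and of the 104 at 1 FPKM or more in siGFP, 24 were higher. Antisense RNAs had 31 of 146 higher and 11 lower, with 21 of 127 higher at 1 FPKM or more in siGFP, and their reads cannot be told from those of the overlapping gene, as strand-specific counting is not stated.

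Heat shock genes gave a further group of copies. Hsp70Aa and Hsp70Ab measured 62.4 and 63.1 FPKM in siMi-2, against 9.37 and 9.17 in siGFP and 461 and 464 under the siRpd3 label. The copies are nearly identical, so their separate values are uncertain. In all, 6 of 18 heat shock genes were higher in siMi-2, none was lower and the median was 0.40. Hsp70Aa, Hsp70Ab and Hsp70Ba are each counted among these 6, so the share holds copies between which reads could be split. No member was more than 2-fold above each of the other 3 libraries.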

How the data were processed

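Poly(A) RNA of OSCs was sequenced 4 days after siRNA transfection, with 1 library per condition, 4 in all, assigned to conditions by their labels. The authors mapped reads with Bowtie2 2.2.4 to the dm6 genome and to gene and transposon transcripts, and deposited FPKM values per transcript and per TE. The strand setting of their counting is not given in the sources used here.

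The 35327 transcript rows (98.8% matched to RefSeq accessions) were summed per gene symbol. Whole reads were recovered from the FPKM steps and annotated lengths. In intronless genes, 97.8% to 98.0% of values were within 0.01 of a whole read. Of transcript values of 1 to 10 reads 75.9% were even, so mates were taken to be counted 1 by 1 and intervals used 2 reads as 1 fragment. The floor is 3 fragments. No count test was run on these values. Calls were tested on simulated data, which cannot show how much transfections differ from one another.

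The members and lists were chosen with earlier results of these data known. The Arp2/3, tubulin, snRNA, chitinase and growth factor, peptidoglycan recognition, serpin, yellow, melanin, juvenile hormone, meiotic, egg activation and branched-chain amino acid lists were added after their values had been seen. Genes named were Mi-2 and its partner subunits, the 15 highest and 15 lowest ratios, the 10 largest rises and falls in FPKM, the 10 highest and lowest ratios at 10 FPKM or more in siGFP, and up to 3 higher and 3 lower members of each list. Further members of these lists, genes of chromosome 4 and of the lists added last were chosen after their values were seen. Positions are from the Ensembl annotation in dm6 coordinates. Exons of 45.4% of the genes overlap another gene, for example cona, aub, ecd, Ddc, vari, yellow-b and Mccc1, and shared reads cannot be told apart. Alternatives were other pseudocounts, minimum levels, scalings, thresholds and the highest transcript in place of the sum. The analysis used scipy 1.17.1 for intervals, matplotlib 3.10.9 for plots, and pandas 2.3.3 with numpy 2.4.6 under Python 3.11.15.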

Additional observations from a re-analysis of the deposited data

Results flagged for a closer look

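Signals outside the genes described were found in 2 places. In the table of transposable elements, 59 of 111 elements above 0 in both libraries exceeded their siGFP level more than 2-fold in siMi-2 and 2 were below 0.5-fold. Of 4930 genes under the minimum mean of 1 FPKM but above 0 in some library, 598 exceeded their siGFP level more than 2-fold in siMi-2 with a counting interval above a ratio of 1, and 70 were lower with an interval below it. Among these low genes, the germline helicase gene vas was at 0.0243 FPKM in siGFP (2 reads) and 2.66 in siMi-2 (219 reads), and the FGF receptor gene btl was at 0.172 FPKM in siGFP and 2.59 in siMi-2. Neither difference has a replicate check.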

How the results depend on the processing

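No paired analysis was possible because each condition has 1 library. The counts of higher and lower genes were 1245 and 273. They were 2308 and 547 with no minimum, 660 and 173 at a minimum mean of 5 FPKM, 2161 and 855 at 1.5-fold, and 466 and 55 at 4-fold. With genes at 1 FPKM or more in siGFP, an alternative chosen after seeing the data, 807 were higher. Under the other alternatives the counts lay within 1.5 times these. The median log2 ratio, 0.13, was 0.0422 at a minimum of 5 FPKM, -0.0389 scaled to the median gene, 0.0699 scaled to RpL32, 0.0770 with the highest transcript and 0.0622 at 1 FPKM or more in siGFP. That of Mi-2 RNA, -2.58, was -2.41 with a pseudocount of 1 and -2.74 scaled to the median gene. Of 164 named genes past the threshold none changed direction under these alternatives, and 28 came within 2-fold under at least 1 of them, 22 of these with a pseudocount of 1. Of 1144 counts of group members recomputed under the alternatives, 249 moved by over 1.5 times. Depth limits genes with few control reads: 98 higher genes had at most 6 reads in siGFP.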
